A study of Homo sapiens with 3 samples.

Results

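Cadherin and protocadherin genes were followed through the MEIS1 ChIP-seq peak lists of 2 lines derived from CWR-22Rv1, an established human prostate carcinoma line that had been passaged as a xenograft. Peaks were taken when the gene name that the authors' annotation gave them was CDH followed only by digits, or began with PCDH. By this rule 26 of 8015 peaks were cadherin peaks, 22 of 5968 in LV-MEIS1 cells and 4 of 2047 in HOXB13ko-LV-MEIS1 cells. They carried 14 gene names, 12 of them in LV-MEIS1 cells, 3 in HOXB13ko-LV-MEIS1 cells and 1 in both.

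LV-MEIS1 cells expressed MEIS1 from a lentiviral vector and kept their own HOXB13. HOXB13ko-LV-MEIS1 cells expressed the same factor after HOXB13 had been knocked out by CRISPR. Both were grown in medium with puromycin, and both were read against 1 input DNA from CWR-22Rv1 chromatin. In neither line was MEIS1 at its endogenous level, and immunoprecipitates of cells without the vector were not analysed here. The authors pooled 3 immunoprecipitations of LV-MEIS1 cells (202428594 tags) and 2 of HOXB13ko-LV-MEIS1 cells (105763683 tags) before they called peaks, so each line has 1 list and no replicate error. No test between the lines was therefore made. Per the study's methods, the knockout cells were a pool of clones from limiting dilution, made before they received the vector. HOXB13, clone selection, culture, library and sequencing depth cannot be told apart. A gene without a peak is a gene where nothing passed the authors' q-value threshold of 0.01, and weaker binding was not detectable at this depth. The intervals given here are 95% Wilson intervals of shares and cover counting error only.

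Cadherins are calcium-dependent adhesion receptors that hold cells of a tissue together. Classical cadherins bind catenins inside the cell and so tie the junction to actin, with E-cadherin (CDH1) typical of epithelia such as the prostate and N-cadherin (CDH2) typical of neural and mesenchymal cells. Protocadherins are related receptors, best known in the nervous system, and most of them lie in the alpha, beta and gamma gene clusters on chromosome 5. MEIS1 is a homeodomain factor whose core word is TGACA, and HOXB13 binds words with the core ATAAA.

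Sequences of 61 bases around 3 LV-MEIS1 summits on which the account below turns are given first, from the plus strand of hg38, 5′ to 3′, in lower case with TGACA or its reverse complement TGTCA in capitals. They are the summit of CDH2 (chr18:27847599-27847659), the farthest summit of PCDH7 (chr4:30192073-30192133) and the summit of PCDH9-AS2 (chr13:66795704-66795764), the gene name found in both lists.
CDH2 distal: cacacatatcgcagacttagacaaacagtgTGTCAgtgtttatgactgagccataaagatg
PCDH7 distal: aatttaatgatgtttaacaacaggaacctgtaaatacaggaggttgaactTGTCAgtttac
PCDH9-AS2 in LV-MEIS1: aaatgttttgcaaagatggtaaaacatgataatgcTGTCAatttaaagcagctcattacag
Each window holds 1 copy of the word. They do not stand for all 22 LV-MEIS1 cadherin summits, of which 14 had the word within 50 bp and 40.9% within 25 bp. Windows of 61 bases around the CDH15 summit and around the HOXB13ko-LV-MEIS1 summit of PCDH9-AS2 hold no copy.

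RefSeq lists 89 protein-coding cadherin and protocadherin genes, and 11 of them (12.4%, 7.04% to 20.8%) had a peak annotated in LV-MEIS1 cells, where 15.1% of all protein-coding genes had one. In HOXB13ko-LV-MEIS1 cells 2 of 89 (2.25%, 0.618% to 7.83%) had a peak, against 5.79% of all genes. None of the 89 had a peak in both lists, where 2.29% of all protein-coding genes did, and 76 had a peak in neither. This depended on the gene assignment: when each summit was given to the nearest TSS of a protein-coding gene, 4 of the 89 (CDH6, PCDH9, PCDH10 and PCDH15; 4.49%, 1.76% to 11.0%) had summits of both lists, beside 3.63% of all protein-coding genes. The shares of the 2 lists that were cadherin peaks, 0.369% (0.244% to 0.557%) and 0.195% (0.0760% to 0.501%), had overlapping intervals. Cadherin peaks were 5.50 times as many in LV-MEIS1 cells, and peaks of any gene 2.92 times as many.

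The interval of the LV-MEIS1 share includes the value over all genes. Of the clustered protocadherins 0 of 53 had a peak in LV-MEIS1 cells (upper Wilson limit 6.76%). The clusters span 0.727 Mb and held 1 LV-MEIS1 summit, named TAF7, or 1.38 per Mb, beside 1.91 per Mb over the genome. The limit treats these neighbours as independent and leaves out how close they lie, so depletion was not tested. For the 36 protein-coding genes outside the clusters, the median span nearest to a TSS was 1.22 Mb, beside 0.0556 Mb for all protein-coding genes. Among these 36 genes 11 had a LV-MEIS1 peak (30.6%, 18.0% to 46.9%). By family these were 2 of 5 type I cadherins, 5 of 13 type II cadherins, 3 of 10 delta protocadherins and 1 of 3 other non-clustered protocadherins. Type II cadherins, which are mostly known from the nervous system, carried 12 of the 22 LV-MEIS1 cadherin peaks. No peak was annotated to the 7-domain cadherins CDH16 and CDH17, to CDH13, the membrane-anchored T-cadherin, or to CDH23 and CDH26.

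CDH1, the E-cadherin gene, had no peak in either line. The nearest LV-MEIS1 summit lay 385164 bp from the CDH1 gene and was annotated to PRMT7, and the nearest HOXB13ko-LV-MEIS1 summit lay 172703 bp away and was annotated to ZFP90. CDH2, the N-cadherin gene, had 1 LV-MEIS1 peak of 354 bp, 188956 bp downstream of an annotated transcription start site (TSS) and 85250 bp beyond the end of the gene. Distances are those of the authors' annotation, which takes the nearest TSS of any transcript, so that peaks of 1 gene can refer to different start sites. Fold enrichment at the CDH2 summit was 8.24 over background, at the 79.3 percentile of the LV-MEIS1 list. A copy of TGACA was centred 2 bp from that summit. The nearest HOXB13ko-LV-MEIS1 summit lay 1222985 bp from the CDH2 peak.

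CDH15, the M-cadherin of skeletal muscle, had the only cadherin peak annotated to a promoter in either list. Its LV-MEIS1 peak was 628 bp wide with the summit 111 bp upstream of the TSS, 14.4-fold enriched over background at a q-value of 6.75e-48. It ranked at the 99.1 percentile of the LV-MEIS1 list, and the next cadherin peak ranked at 85.9. TGACA lay within 50 bp of this summit in 2 copies, the nearer one centred 29 bp away. No HOXB13ko-LV-MEIS1 peak overlapped it. A HOXB13ko-LV-MEIS1 summit did lie 14888 bp away, in an intron of CDH15, but the authors' annotation gave it to SLC22A31, and it had a fold enrichment of 6.52 and no TGACA within 50 bp.

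**Figure D1:**
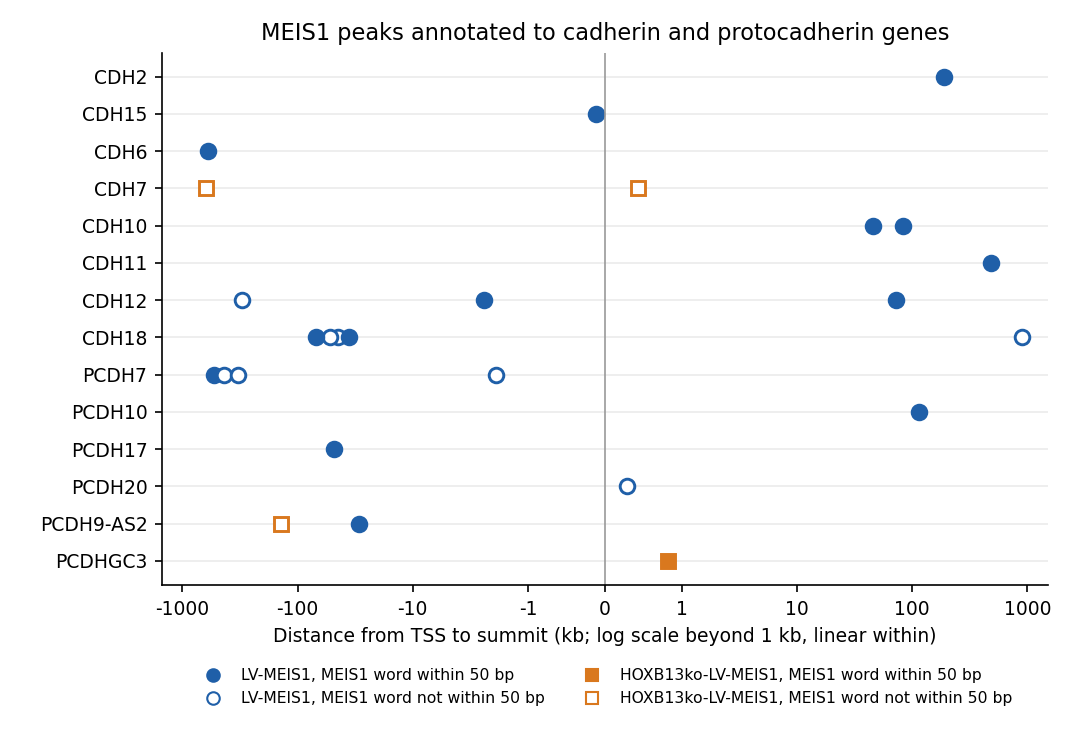
Distance from TSS to summit in kb (negative is upstream, linear within 1 kb and logarithmic beyond it) for all 26 cadherin and protocadherin peaks, with 1 row per gene name. Circles are LV-MEIS1 and squares HOXB13ko-LV-MEIS1 peaks, and filled symbols have TGACA, the MEIS1 word, within 50 bp of the summit; 4 of 22 LV-MEIS1 peaks lay within 10 kb of the TSS, beside 38.1% of all LV-MEIS1 peaks.

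CDH18, a type II cadherin of the brain, had the most LV-MEIS1 peaks of any cadherin gene by the deposited names, with 5. By the nearest TSS of a protein-coding gene PCDH7 had 11, CDH6 had 6 and CDH18 had 5. A total of 89 gene names had 5 or more peaks in this list and the highest number was 13. Summits within the gene lay 35906 bp, 44715 bp, 51818 bp and 68930 bp upstream of the start sites of shorter transcripts, in introns of the longer one, with fold enrichments of 6.93, 8.39, 6.67 and 8.73. The fifth lay 901382 bp downstream, with a fold enrichment of 4.42, the lowest of the 22. Summits at 35906 bp, 51818 bp and 68930 bp followed each other at steps of 15912 bp and 17112 bp. TGACA was found within 50 bp of 2 of the 5 summits, those at 35906 bp and 68930 bp.

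PCDH7, a delta protocadherin, had 4 LV-MEIS1 peaks and all lay upstream of its TSS. They lay at 1912 bp, 328164 bp, 437543 bp and 528305 bp, with fold enrichments of 6.35, 5.19, 5.94 and 9.05 in that order. The farthest had the highest fold enrichment of the 4 and was the only one with TGACA within 50 bp. A further LV-MEIS1 summit lay 41 bp beyond the other end of PCDH7 and was annotated to LINC02497, so the upstream placement holds for the named peaks only. With the TSS of every GENCODE gene, noncoding ones included, all 4 PCDH7 peaks were nearer to another gene. The one at 1912 bp lay within a noncoding gene, 1127 bp from its TSS. The single peaks of CDH2, CDH6, CDH11, PCDH10 and PCDH17 were also nearer to a gene of neither family. CDH12, a type II cadherin of the brain, had 3 LV-MEIS1 peaks with fold enrichments of 6.30, 5.66 and 6.00, at 2424 bp upstream, 72689 bp downstream and 305216 bp upstream. The first sits in an intron of the longer CDH12 transcript, beside the TSS of a shorter one, and the third is nearer to the TSS of PRDM9 when only protein-coding genes of GENCODE are used. The first and second had TGACA within 50 bp of the summit and the third did not.

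The highest fold enrichments after CDH15 were those of PCDH9-AS2 (9.13), PCDH7 (9.05), CDH11 (8.94) and CDH18 (8.73), which ranked between the 83.0 and 85.9 percentiles of the list. CDH11, the cadherin of osteoblasts and other mesenchymal cells, had its peak 481682 bp downstream of the TSS, in an L1PA8A element, with TGACA centred 5 bp from the summit. Of the others, CDH10 had 2 LV-MEIS1 peaks, and CDH6, PCDH10, PCDH17 and PCDH20 had 1 each. Both CDH10 peaks lay in introns of that type II cadherin, 46186 bp and 82895 bp from the TSS, at fold enrichments of 7.64 and 5.07, and both had TGACA within 50 bp. The delta protocadherins PCDH10 and PCDH17 had intergenic peaks 115152 bp downstream and 47997 bp upstream, at fold enrichments of 5.51 and 8.29. The PCDH20 peak lay in the 5′ UTR 294 bp from the TSS, at a fold enrichment of 5.61, and had no TGACA within 50 bp. The CDH6 peak lay 592584 bp upstream of the gene and had 2 copies of TGACA within 50 bp.

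Over all 22 LV-MEIS1 cadherin peaks the median fold enrichment was 6.80 (4.42 to 14.4), beside 6.17 for all 5968 peaks, and 14 of 22 were above the list's median. Their median width was 291.5 bp, beside 279 bp for all peaks.

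**Figure D2:**
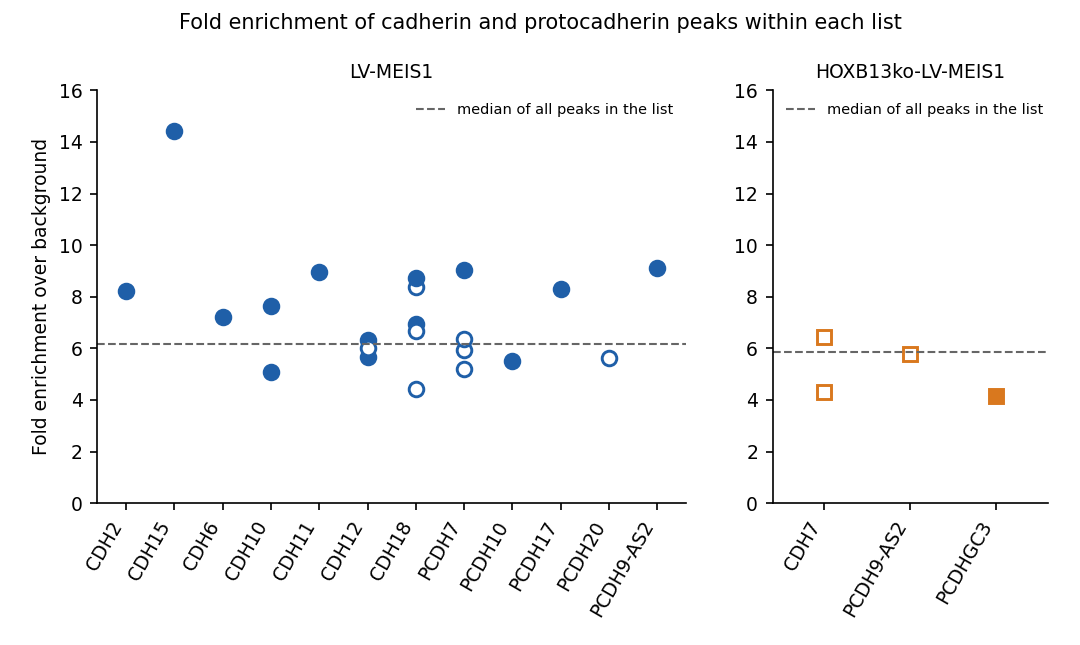
Fold enrichment over background of each cadherin and protocadherin peak, by gene name, in LV-MEIS1 (left) and HOXB13ko-LV-MEIS1 cells (right); filled symbols have TGACA, the MEIS1 word, within 50 bp of the summit, and the dashed line is the median of all peaks in that list. CDH15 stands apart at 14.4 and the other 21 LV-MEIS1 peaks lie between 4.42 and 9.13; the scales are those of separate lists and levels were not compared across panels.

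HOXB13ko-LV-MEIS1 cells had 4 cadherin peaks. CDH7, a type II cadherin, had 2. The distal one lay 627717 bp upstream with a fold enrichment of 6.42, the highest of the 4. The other lay in the 5′ UTR 427 bp from the TSS, was 666 bp wide and had a fold enrichment of 4.29, higher than only 16.1% of the list. Its pileup of 46.2 and q-value of 6.83e-13 were the highest and the strongest of the 4. The background implied by pileup and fold enrichment was 10.0 there, beside 3.30 at the distal peak. CDH7 had no LV-MEIS1 peak, and the nearest LV-MEIS1 summit was 899339 bp from the gene.

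PCDHGC3, of the gamma protocadherin cluster, had a HOXB13ko-LV-MEIS1 peak in its first exon, 826 bp from the TSS. Its fold enrichment of 4.15 and q-value of 4.23e-04 were the lowest and the weakest of the 4, and it was the only one with TGACA within 50 bp. The variable exons of the gamma cluster are spliced to shared downstream exons, so this summit also lies within the gene bodies of the gamma genes upstream of it. PCDH9-AS2, an antisense RNA gene within the delta protocadherin gene PCDH9, was the only cadherin name in both lists. Its peaks lay 29435 bp upstream of the TSS in LV-MEIS1 cells, at a fold enrichment of 9.13, and 139700 bp upstream in HOXB13ko-LV-MEIS1 cells, at 5.76. Both fell in the same intron of PCDH9, with summits 110265 bp apart and no overlap. The summits of the distal CDH7 peak and of the HOXB13ko-LV-MEIS1 peak of PCDH9-AS2 both fell in the internal part of a THE1 element, an old retrovirus-like repeat, and neither had TGACA within 50 bp. Internal sequence of this repeat class (ERVL-MaLR) held 251 of all 2047 HOXB13ko-LV-MEIS1 peaks and 1 of all 5968 LV-MEIS1 peaks.

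By the deposited names, no cadherin peak of either list overlapped a peak of the other. The count of 0 of 22 LV-MEIS1 peaks has an upper Wilson limit of 14.9%, where 7.66% of all LV-MEIS1 peaks overlapped. The count of 0 of 4 HOXB13ko-LV-MEIS1 peaks has an upper limit of 49.0%, where 22.3% of all overlapped. Both backgrounds were under these limits. Measured to the nearest summit rather than by overlap, 1 of 22 LV-MEIS1 cadherin summits (4.55%, 0.807% to 21.8%) had a HOXB13ko-LV-MEIS1 summit within 100 kb, where 24.9% (23.8% to 26.0%) of all LV-MEIS1 summits did. That 1 summit was at CDH15. Neighbouring peaks shared their nearest HOXB13ko-LV-MEIS1 summit, as the 5 of CDH18 did and the 4 of PCDH7. The 22 summits are thus not independent, and the interval, which treats them as such, is too narrow. The median distance to the nearest HOXB13ko-LV-MEIS1 summit was 1574440 bp for cadherin peaks and 431268 bp for all LV-MEIS1 peaks. A territory is the bases nearest to the TSS of 1 protein-coding gene. Of the 22 cadherin peaks, 19 lay in territories of 1 Mb or more. HOXB13ko-LV-MEIS1 peaks numbered 247 in 860 Mb of such large territories and 1710 in 2232 Mb of smaller ones. Neither measure was taken for all LV-MEIS1 peaks in large territories, so a difference particular to cadherin genes was not tested.

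LV-MEIS1 cadherin peaks lay mostly away from promoters. One promoter peak in 22 made a share of 4.55% (0.807% to 21.8%), beside 20.2% of all LV-MEIS1 peaks, and 11 of 22 (50.0%, 30.7% to 69.3%) were intergenic, beside 37.0%. Introns held 9 of 22 (40.9%), beside 38.0% of all peaks. The median distance to the TSS was 70810 bp (order-statistic interval 35906 bp to 328164 bp), beside 23121 bp for all peaks. Beyond 100 kb lay 9 of 22 (40.9%, 23.3% to 61.3%), beside 21.7%, and within 10 kb lay 4 of 22 (18.2%, 7.31% to 38.5%), beside 38.1%. Upstream of the TSS were 14 of 22 (63.6%, 43.0% to 80.3%), beside 47.4% of all peaks.

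Many cadherin genes outside the clusters had large territories. When each base of the genome was given to the nearest TSS of a protein-coding gene, the median territory of the 36 genes was 1.22 Mb, beside 0.0556 Mb for all 20007 genes. LV-MEIS1 peaks in cadherin territories numbered 49 over 50.0 Mb, or 0.980 per Mb, and over the whole genome there were 1.91 per Mb. HOXB13ko-LV-MEIS1 peaks numbered 7 there, or 0.140 per Mb beside 0.633 per Mb. With the TSS of every annotated gene, noncoding ones included, cadherin territories shrank to 8.73 Mb with 11 LV-MEIS1 peaks, or 1.26 per Mb.

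Territories of 1 Mb or more, a limit set for this comparison, were held by 20 of these genes. Of the 20, 14 (70.0%) had at least 1 LV-MEIS1 summit in the territory, and so had 284 of all 421 genes with such territories (67.5%). Density was 1.04 LV-MEIS1 peaks per Mb for the 20 and 1.17 per Mb for the 421, beside 2.20 per Mb in smaller territories. HOXB13ko-LV-MEIS1 peaks numbered 6 in the 44.4 Mb of the 20 and 247 in the 860 Mb of the 421. Smaller territories held 1710 of them in 2232 Mb. At least 1 HOXB13ko-LV-MEIS1 summit lay in the territory of 5 of the 20 genes (25.0%) and of 128 of the 421 (30.4%). PCDH7 had the largest territory of the cadherin genes, 4.62 Mb with 11 LV-MEIS1 summits. CDH8, with 3.28 Mb, had no summit of either list, and CDH9, with 3.39 Mb, had 3 LV-MEIS1 summits that the authors' annotation gave to other names. CDH15 was at the other end, with 1 LV-MEIS1 summit in 0.0241 Mb, and CDH1 had none in 0.117 Mb.

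**Figure D3:**
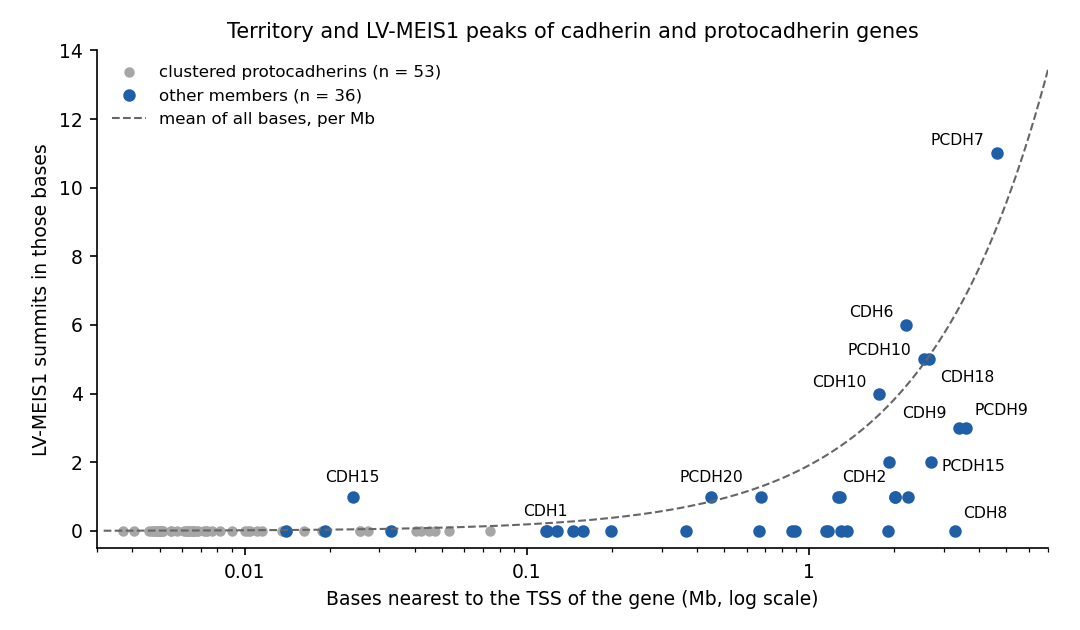
Territory of each of the 89 protein-coding cadherin and protocadherin genes (bases nearest to its TSS, in Mb on a log scale) against the number of LV-MEIS1 summits in it. Grey points are the 53 clustered protocadherins, all at 0, blue points the other 36 genes, and the dashed line is the mean of the whole genome, 1.91 per Mb; PCDH7 has 11 summits in 4.62 Mb and CDH8 none in 3.28 Mb.

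All LV-MEIS1 peaks in territories of 1 Mb or more gave a closer background for the class and word counts. Of those 1003 peaks 3.59% were at promoters, 59.4% were intergenic and 4.59% overlapped a HOXB13ko-LV-MEIS1 peak, beside 4.55%, 50.0% and 0% of the 22 cadherin peaks and 0%, 52.6% and 0% of the 19 cadherin peaks that lay in such territories. The CDH15 promoter peak is not among the 19. In the 4907 peaks of smaller territories these shares were 23.4%, 32.4% and 8.11%. The interval of the cadherin promoter share (0.807% to 21.8%) included the large-territory value and not the small-territory one, while that of the intergenic share (30.7% to 69.3%) included both. Beyond 100 kb lay 62.8% of the large-territory and 13.5% of the small-territory peaks. These values were on either side of the interval of all 22 cadherin peaks (23.3% to 61.3%). Of the 19 cadherin peaks in large territories 8 (42.1%) lay beyond 100 kb. That share carries no interval here, so a difference from the large-territory value was not tested.

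**Figure D4:**
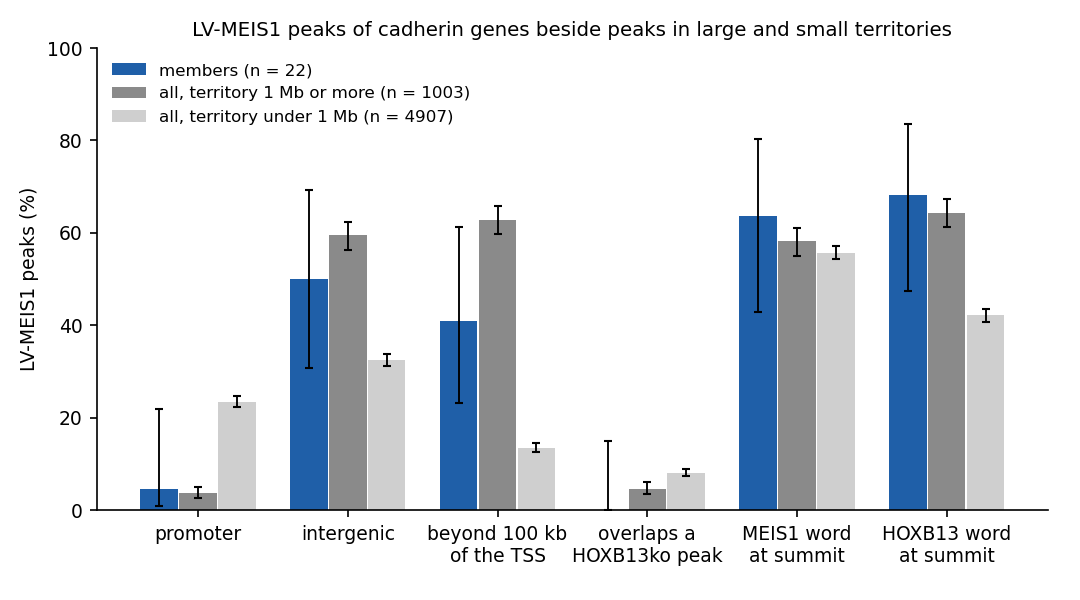
Share of LV-MEIS1 peaks in percent by class, distance, overlap and word, for the 22 cadherin and protocadherin peaks (blue), the 1003 peaks in territories of 1 Mb or more (dark grey) and the 4907 peaks in smaller ones (light grey), with 95% Wilson intervals that cover counting error. The MEIS1 word is TGACA and the HOXB13 word ATAAA; promoter shares were 4.55%, 3.59% and 23.4%.

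TGACA lay within 50 bp of 14 of 22 LV-MEIS1 cadherin summits (63.6%, 43.0% to 80.3%), beside 56.1% of all summits in the list. In windows of the same width centred 500 bp to the left and to the right of the summit, 5 and 5 of the 22 held it (22.7% each), beside 18.6% and 19.2% of all. The word was more frequent at cadherin summits than beside them, as it was over the whole list. By family 10 of 14 peaks of CDH genes and 3 of 7 peaks of protein-coding PCDH genes held it, and so did the peak of PCDH9-AS2. Within 25 bp 40.9% of cadherin summits had the word.

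ATAAA lay within 50 bp of 15 of 22 cadherin summits (68.2%, 47.3% to 83.6%). It was found in 6 of the 22 windows to the left and in 15 of the 22 to the right, so the count at the summit equalled that of 1 flank. All LV-MEIS1 peaks had ATAAA at 45.8% of summits and 33.3% and 32.6% of flanks, and peaks in large territories at 64.3% of summits. TGACA followed 2 bases later by TTTAT, on either strand, was at 0 of 22 cadherin summits and at 55 of all 5968 (0.922%). In HOXB13ko-LV-MEIS1 cells TGACA was at 1 of 4 cadherin summits and 16.8% of all, and ATAAA at 0 of 4 and 13.0% of all. Of RefSeq promoters (250 bases before to 50 after the TSS), 38.9% of all 35116 and 28 of 94 promoters of cadherin and protocadherin entries (29.8%) held TGACA on either strand. Since 53 of the 89 protein-coding genes lie close together in the clusters, these promoters are not independent, and a difference was not tested.

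Annotated repeats held 5 of the 22 LV-MEIS1 cadherin summits (22.7%), beside 19.5% of all. Of these, 4 were LINE elements, at CDH10, CDH11 and CDH18, and the other was HERVH internal sequence at PCDH10. Among gene names with a LV-MEIS1 peak, 3 of 12 cadherin names (25.0%) had 3 or more peaks, beside 8.68% of all 4158 names, and the mean was 1.83 peaks a name beside 1.43. The 3 names were CDH18, PCDH7 and CDH12, whose territories measured 2.67, 4.62 and 1.92 Mb. Peaks a name were not counted for other genes with large territories, and the share of 3 in 12 carries no interval.

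Peaks inside cadherin genes were not always annotated to them, because the authors' annotation takes the nearest TSS. In LV-MEIS1 cells 14 summits lay within the gene bodies of 8 protein-coding cadherin genes, and 5 of the 14 carried another gene's name, that in PCDH9 the name of its antisense gene and 4 a name outside both families. Outside the rule, and chosen after their values were seen, are those of PCDH15, a cadherin of the tip links of inner ear hair cells. Its gene body in GENCODE held 2 LV-MEIS1 summits annotated to MTRNR2L5, with fold enrichments of 11.7 and 12.1, above all cadherin peaks but that of CDH15. The second of them, in an L1MC element, overlapped a HOXB13ko-LV-MEIS1 peak with a fold enrichment of 6.25, the only overlapping pair within a cadherin gene. Windows of 61 bases around these summits, at chr10:55221516-55221576 and chr10:55248972-55249032 each held 1 copy of TGTCA.
PCDH15 first: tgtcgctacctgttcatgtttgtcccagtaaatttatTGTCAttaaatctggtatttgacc
PCDH15 second: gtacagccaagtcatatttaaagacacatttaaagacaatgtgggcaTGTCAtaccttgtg
The other such summits were at CDH13, in an intron, with a fold enrichment of 5.88 and the name MIR3182, and at PCDH12, with 5.34 and the name RNF14, 54 bp from whose TSS it lay.

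Other genes of the cadherin system were counted from a list of catenins, junction partners, desmosomal cadherins and distant cadherins. Of 20 catenins and junction partners 5 (25.0%) had a LV-MEIS1 peak and 3 (15.0%) a HOXB13ko-LV-MEIS1 peak, where 15.1% and 5.79% of all protein-coding genes did. CTNND2, delta-catenin, and PKP1, plakophilin of desmosomes, had an overlapping pair in the 2 lists, with LV-MEIS1 fold enrichments of 11.2 and 8.59 and HOXB13ko-LV-MEIS1 fold enrichments of 6.45 and 6.14. LV-MEIS1 promoter peaks were found at JUP, plakoglobin, 398 bp upstream of its TSS, and at PKP3, 6 bp upstream, without TGACA within 50 bp. Among 7 desmosomal cadherins 3 (42.9%) had LV-MEIS1 peaks (DSG4, DSC1 and DSC3). The DSC1 peak with a fold enrichment of 13.2 overlapped the single HOXB13ko-LV-MEIS1 peak of the list. Of 17 other members of the superfamily FAT1, FAT3 and CLSTN2 (17.6%) had LV-MEIS1 peaks and none had a HOXB13ko-LV-MEIS1 peak. Both lists stand beside the same 15.1% and 5.79% of all protein-coding genes, and the counts are small and carry no interval. Over all peaks 7.66% of the LV-MEIS1 list and 22.3% of the HOXB13ko-LV-MEIS1 list overlapped the other.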

How the data were processed

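MEIS1 ChIP-seq of CWR-22Rv1 cells was analysed from the peak list and the annotation that the authors deposited for each line. Per the labels and file headers, reads of 50 bp were trimmed with Trimmomatic 0.38, cleared of duplicates with Picard 2.18.10 and aligned to hg38 with Bowtie2, and pooled immunoprecipitations were compared with 1 input of 39102495 tags by MACS2 2.1.2. The study's methods speak of input specific to the cell line, but both lists name the same input file, so the background of HOXB13ko-LV-MEIS1 peaks may not be that of the line. The deposited signal is the pileup at the summit, scaled to the input, and the deposited fold enrichment is its ratio to local background. The authors' p-value and q-value are given as −log10 values, and since the column names of the peak lists were damaged, q-values were taken from the peak score of the deposited annotation. Other deposited values are positions and HOMER 4.9.1 distances to the nearest TSS. Fold enrichment was ranked within a list and not compared between lists, since the pools were scaled by 0.193 and 0.370.

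Here lists were joined to annotations on chromosome and summit, overlap was counted from 1 bp, and each base within 50 bp of a summit was read from hg38 to find TGACA and ATAAA. Territories came from GENCODE release 44 and gene rosters and promoters from RefSeq (GRCh38.p14). No test was made, since each line has 1 pooled list. Genes were named if they had a promoter peak, peaks in both lists, 3 or more peaks, or one of the 5 highest fold enrichments in a list, with CDH1 and CDH2 in any case, and other members with a peak were named by family. The values given for CDH6, CDH10, PCDH10, PCDH17 and PCDH20, and CDH8, CDH9, CDH13, PCDH12 and PCDH15, were chosen after their values were seen. Some summit sequences are not reported here. Members, lists and named genes were chosen with earlier results of these data known. The functions for overlap, words and territories were tested on simulated data. Alternatives were stricter thresholds, distance limits, other overlaps, windows, gene assignments and member rules. Python 3.11.15, numpy 2.4.6, scipy 1.17.1, pandas 2.3.3 and matplotlib 3.10.9 were used.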

Additional observations from a re-analysis of the deposited data

How the results depend on the processing

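Of 91 alternative values 59 stayed within 1.5 times a count or within the interval of a share, median or density, and 32 moved. With a fold enrichment of at least 5, HOXB13ko-LV-MEIS1 cells kept 2 cadherin peaks and 0% of them had TGACA. Within 100 kb of the TSS there were 13 LV-MEIS1 and 2 HOXB13ko-LV-MEIS1 peaks, 0 genes with a peak in both lines and 15.4% intergenic LV-MEIS1 peaks. Within 10 kb there were 4 LV-MEIS1 peaks of 4 genes and 2 HOXB13ko-LV-MEIS1 peaks, 0 genes in both lines, 25.0% promoter and 25.0% intergenic LV-MEIS1 peaks and a median distance of 1103 bp, since both limits remove distant peaks by construction. With the nearest TSS of a protein-coding gene in place of the deposited name there were 49 LV-MEIS1 peaks, 7 HOXB13ko-LV-MEIS1 peaks of 6 genes, 4 genes in both lines and a median LV-MEIS1 distance of 358203 bp. CDH names alone gave 14 LV-MEIS1 peaks of 7 genes, 2 HOXB13ko-LV-MEIS1 peaks of 1 gene and 0 genes in both lines. PCDH names alone gave 8 LV-MEIS1 peaks of 5 genes, 2 HOXB13ko-LV-MEIS1 peaks, 0% promoter and 75% intergenic LV-MEIS1 peaks. Without clustered and noncoding genes HOXB13ko-LV-MEIS1 cells had 2 peaks of 1 gene, and 0 genes were in both lines. Within 25 bp of the summit 40.9% of LV-MEIS1 cadherin peaks had TGACA. Overlap between the lists was 0 in each of the 4 alternatives for either list. All 4 kept the deposited names, so they could not find the overlapping pair within PCDH15. That pair would count with the nearest TSS of a protein-coding gene. The density in cadherin territory stayed between 0.880 and 1.35 LV-MEIS1 peaks per Mb, the lower value with RefSeq start sites, an alternative chosen after seeing the data. Replicates were pooled before deposit, so none could be left out, and no paired analysis was possible because no result comes from a test. The input of 39102495 tags was smaller than either pool, which limits the precision of the background.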

Other observations

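The type II cadherin genes CDH18, CDH12, CDH10, CDH9 and CDH6 follow each other on chromosome 5. From the start of CDH18 to the end of CDH6 (11.9 Mb) GENCODE places 6 protein-coding genes, 5 of them cadherins. LV-MEIS1 summits in this run numbered 23, or 1.94 per Mb, of which 10 carried a cadherin name and 3 the name PRDM9, and the others were given to noncoding or pseudogene names. HOXB13ko-LV-MEIS1 summits numbered 2, neither with a cadherin name. From PCDH17 to PCDH9 on chromosome 13 (9.60 Mb) there were 19 LV-MEIS1 and 3 HOXB13ko-LV-MEIS1 summits. The protocadherin clusters, from PCDHA1 to PCDHGC5 (0.727 Mb), held 1 LV-MEIS1 summit, named TAF7, and 2 HOXB13ko-LV-MEIS1 summits, named TAF7 and PCDHGC3.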
